A study of Mus musculus with 31 samples.

Results

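Mast cell genes were followed through fetal mouse gonads that carry or lack a mutation in the receptor Kit: Cpa3, Cma1, Tpsb2, Mcpt4, Ms4a2 and Hdc. These 6 of 18194 named genes were taken by symbol from probe sets annotated with 1 gene, 9 probe sets in all, and each gene was read at its brightest probe set by mean over the 31 arrays. Whole gonads of Wv/Wv and of wild-type mouse embryos were compared, with 1 Affymetrix array for each RNA sample. Wv/Wv ovaries had 2, 3 and 3 arrays at 12, 14 and 16 dpc (days post coitum), against 2, 3 and 3 in wild-type ovaries. Wv/Wv testes had 3, 2 and 3 arrays, against 1, 3 and 3 in wild-type testes. Wv is a missense allele of Kit that weakens its kinase and is carried in every cell of the homozygous embryo, so all Kit-dependent lineages are affected together. The labels number the arrays of a group as biological replicates, without stating whether each stands for a separate embryo or a pool. Their spread sets the p-values, and how much of it is technical is not known.

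Mast cells are tissue-resident blood cells that descend from haematopoietic progenitors and, unlike most blood lineages, keep Kit on their surface when mature. Stem cell factor, the Kit ligand, carries their survival and growth, and adult mice with strong Kit mutations have few mast cells. Their granules store proteases together with histamine and serglycin proteoglycan: Cpa3 is a carboxypeptidase, Cma1 and Mcpt4 are chymases, and Tpsb2 is a tryptase. Ms4a2 is the beta chain of the high-affinity receptor for IgE, and Hdc, histidine decarboxylase, makes histamine. In bulk tissue, fewer mast cells and less RNA per mast cell cannot be told apart.

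Values are log2 signals, and a change is the Wv/Wv mean minus the wild-type mean with the standard error of the fit. A change was called at a limma adjusted p (Benjamini-Hochberg over all genes) below 0.05. Signals under 5.39, the 40th percentile of all values, were taken as low. The organ labels held on every array: the mean over 5 ovary somatic markers was at least 9.03 in ovaries and at most 7.70 in testes, and that over 6 testis markers was at least 7.62 in testes and at most 6.88 in ovaries. The 31 arrays fell into 2 classes by the spread of their values, 21 with a wide spread (SD 2.33 to 2.39) and 10 with a narrow one (SD 1.77 to 2.18), and low-signal probe sets, among them those of these genes, tended to read higher on the narrow arrays. Narrow arrays in ovaries were arrays 2 and 3 of Wv/Wv at 14 dpc, array 2 of Wv/Wv at 16 dpc, array 1 of wild type at 14 dpc and all 3 of wild type at 16 dpc. In testes they were array 2 of Wv/Wv at 14 dpc, and array 1 of both Wv/Wv and wild type at 16 dpc. Values are therefore also given from a fit with array class as a term and wild-type testis 16 dpc array 1, the array of lowest spread, left out, called the class-adjusted fit.

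Cpa3, the carboxypeptidase, was the member that followed genotype most evenly. Each of its 6 Wv/Wv group means lay below each of its 6 wild-type group means. It was lower in Wv/Wv in all 6 pairs of organ and age, as were 409 of all 18194 genes (2.248%). Tpsb2 was also lower in all 6 pairs, though by little outside ovaries at 16 dpc. Cma1 and Tpsb2 were lower in Wv/Wv ovaries at 16 dpc, while Mcpt4 and Ms4a2 stayed under the low limit on every array and Hdc showed no genotype call.

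In ovaries at 14 dpc Cpa3 read 4.37, 4.72 and 5.47 on the Wv/Wv arrays, against 7.90, 6.03 and 6.94 on the wild-type arrays. In ovaries at 16 dpc it read 4.29, 5.02 and 5.21 in Wv/Wv, against 7.73, 5.70 and 7.49 in wild type. The genotypes did not overlap at either age, and the lowest wild-type array at 16 dpc stood well below the other two. The change was -2.11 ± 0.48 at 14 dpc (adjusted p = 0.0099) and -2.14 ± 0.48 at 16 dpc (adjusted p = 0.0123). All Wv/Wv arrays at 16 dpc were under the low limit, and the wild-type mean lay 3.01-fold above that limit. As a lower bound on the fold this takes in neither the spread nor array class, and all wild-type arrays there were narrow. At 14 dpc, 1 of 6 members was called lower, beside 4.08% of all genes, and at 16 dpc 3 of 6, beside 2.35%. In the class-adjusted fit the Cpa3 change was -2.29 ± 0.45 (adjusted p = 8.47e-04) at 14 dpc and -1.76 ± 0.49 (adjusted p = 0.0156) at 16 dpc, where 14.7% and 8.95% of all genes were called lower. Leaving out wild-type array 1 or Wv/Wv array 2 ended the call at 14 dpc, and leaving out wild-type array 1 or 3 or Wv/Wv array 1 ended it at 16 dpc, with changes of -1.63 and -2.04 at 14 dpc and of -1.76, -1.88 and -1.86 at 16 dpc.

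At 12 dpc, the age at which the gonad has just taken its sex, Cpa3 in ovaries read 4.36 and 4.32 in Wv/Wv, against 5.22 and 5.49 in wild type. In testes at 12 dpc it read 4.24, 4.28 and 4.38 in Wv/Wv, against 5.64 on the single wild-type array. Cpa3 did not overlap between genotypes in either organ, which was not particular to it. Cma1, Tpsb2 and Hdc did not overlap in ovaries either, nor Cma1, Ms4a2 and Hdc in testes. Groups this small separate easily, and the share of all genes that did so was not counted. None of the 6 members was called, beside 0.0934% of all genes called lower in ovaries and 0.033% in testes. The Cpa3 changes were -1.02 ± 0.59 in ovaries and -1.34 ± 0.68 in testes, both with an adjusted p of 1.

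In testes at 14 dpc Cpa3 read 4.42 and 5.01 in Wv/Wv, against 6.11, 5.98 and 4.89 in wild type. In testes at 16 dpc it read 4.55, 4.66 and 4.82 in Wv/Wv, against 6.16, 6.24 and 4.87 in wild type. Wild-type array 3 was the low one at both ages: it lay within the Wv/Wv range at 14 dpc and just above it at 16 dpc. The changes, -0.94 ± 0.54 (adjusted p = 0.848) and -1.08 ± 0.48 (adjusted p = 0.667), did not pass the test, and no member was called, beside 0.594% and 0.484% of all genes called lower.

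Over the 3 ages together Cpa3 averaged 4.68 in Wv/Wv ovaries, against 6.43 in wild-type ovaries, a change of -1.75 ± 0.30 (adjusted p = 5.84e-04, 1 of 6 members called lower beside 3.25% of all genes). That call held under all 24 other settings tried, with changes between -1.97 and -1.60 and adjusted p values between 3.45e-05 and 0.0083. In testes the means were 4.56 in Wv/Wv and 5.68 in wild type, a change of -1.12 ± 0.33 with an unadjusted p of 0.0027 and an adjusted p of 0.263 (no member called, beside 0.621% of all genes). Of 23 other settings 1, array class as a term with all arrays, gave a call there (-1.21, adjusted p = 0.0437), and the highest adjusted p was 0.647. The testis change was 0.63 ± 0.45 less negative than the ovary change, and this difference did not pass the test (adjusted p = 1, 0 of 6 members called beside 0.467% of all genes), so the data do not show that the organs differ.

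**Figure D1:**
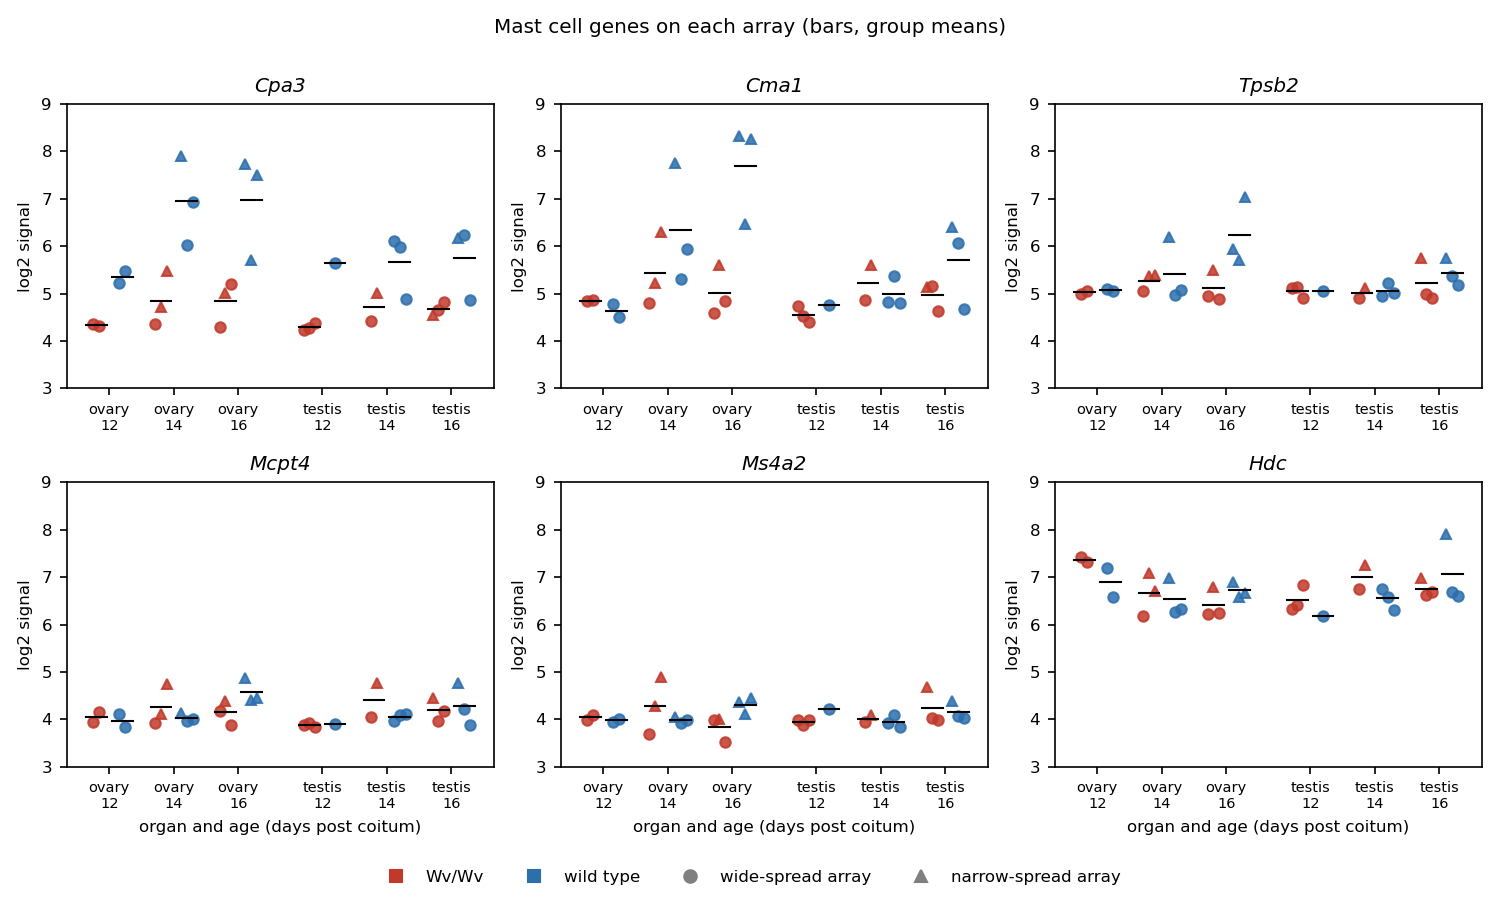
Log2 signal of each of the 6 genes on the 31 arrays, by organ and age in days post coitum, with Wv/Wv (red) left of wild type (blue), circles for wide-spread and triangles for narrow-spread arrays, and bars at group means. The mean of Cpa3 is lower in Wv/Wv at every organ and age, Cma1 and Tpsb2 separate most clearly in ovaries at 16 dpc, and Mcpt4 and Ms4a2 never reach 5.39.

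The separation of Cpa3 by genotype was also seen with array class held constant. On wide arrays it ranged from 4.29 to 5.21 in Wv/Wv ovaries, against 5.22 to 6.94 in wild-type ovaries, and from 4.24 to 4.82 in Wv/Wv testes, against 4.87 to 6.24 in wild-type testes. On narrow arrays it ranged from 4.72 to 5.47 in Wv/Wv ovaries, against 5.70 to 7.90 in wild-type ovaries, and from 4.55 to 5.01 in Wv/Wv testes, against 6.16 on the single wild-type testis array. No set overlapped, although the genotypes almost touched on wide arrays, and ages are mixed within a set. Of all genes 42 (0.231%) had every Wv/Wv array below every wild-type array in all 4 sets, Cpa3 the only member among them, beside 8 of 12 germ cell genes such as Dazl, Ddx4 and Mael and none of the 20 other mast cell genes, 10 erythroid genes or 8 neutrophil genes measured. This count was chosen after the values were seen.

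Cma1, the chymase that granules hold together with Cpa3, moved in older ovaries. In ovaries at 16 dpc it read 4.59, 5.60 and 4.84 in Wv/Wv, against 8.33, 6.47 and 8.26 in wild type. The genotypes did not overlap, and wild-type array 2 was the low one, as it was for Cpa3. That array also stood apart in germ cell genes, picked after their values were seen: Stra8 read 11.90 on it, against 8.91 and 8.76 on wild-type arrays 1 and 3, and between 10.95 and 12.11 in wild-type ovaries at 14 dpc. Pou5f1 read 8.34 on it, against 5.84 and 5.34 on the other two. The part of this in the mast cell values was not tested. Without that array the Cpa3 change was -2.77 and the Cma1 change -3.28, both called. The change was -2.68 ± 0.54 (adjusted p = 0.0047), and -2.01 ± 0.46 (adjusted p = 0.0046) in the class-adjusted fit. It was called under all 15 other settings, with changes between -3.31 and -2.00 and adjusted p values between 6.76e-08 and 0.0396.

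In ovaries at 14 dpc Cma1 read 4.79, 5.23 and 6.30 in Wv/Wv, against 7.76, 5.30 and 5.94 in wild type. The genotypes overlapped, and the highest array of each was a narrow one. The change was -0.90 ± 0.54 (adjusted p = 0.418), while in the class-adjusted fit it was -1.23 ± 0.43 (adjusted p = 0.0459, 1 of 16 other settings with a call, and adjusted p up to 0.863). At 12 dpc Cma1 in ovaries read 4.84 and 4.87 in Wv/Wv, against 4.78 and 4.50 in wild type, all under the low limit. Over the ages the ovary change was -1.12 ± 0.34 (adjusted p = 0.0692), and in the class-adjusted fit -1.01 ± 0.26 (adjusted p = 0.0076, where 14.1% of all genes were called lower). Over that result's 25 other settings 7 gave a call, with adjusted p values between 0.0076 and 0.182.

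In testes Cma1 lay under the low limit on most arrays, and no change was called. At 16 dpc it read 5.13, 5.17 and 4.64 in Wv/Wv, against 6.40, 6.08 and 4.67 in wild type, a change of -0.74 ± 0.54 (adjusted p = 0.708). Wild-type arrays 1 and 2 were high for Cma1 and for Cpa3, and array 3 was low for both. At 14 dpc it read 4.86 and 5.60 in Wv/Wv, against 4.82, 5.37 and 4.81 in wild type, and at 12 dpc 4.74, 4.53 and 4.40 in Wv/Wv, against 4.77 in wild type.

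Across the 31 arrays the correlation of Cpa3 with Cma1 was 0.840, and over the 21 wide arrays it was 0.711. These values are descriptions: arrays share genotype, organ and age, and both genes averaged higher on narrow arrays in each genotype. Array class is mixed with age, as every 12 dpc array was wide, and its part was not tested. Tpsb2 correlated with Cma1 at 0.865 over all arrays and at 0.501 over the wide ones, and Hdc with Cpa3 at 0.064 and -0.200.

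**Figure D2:**
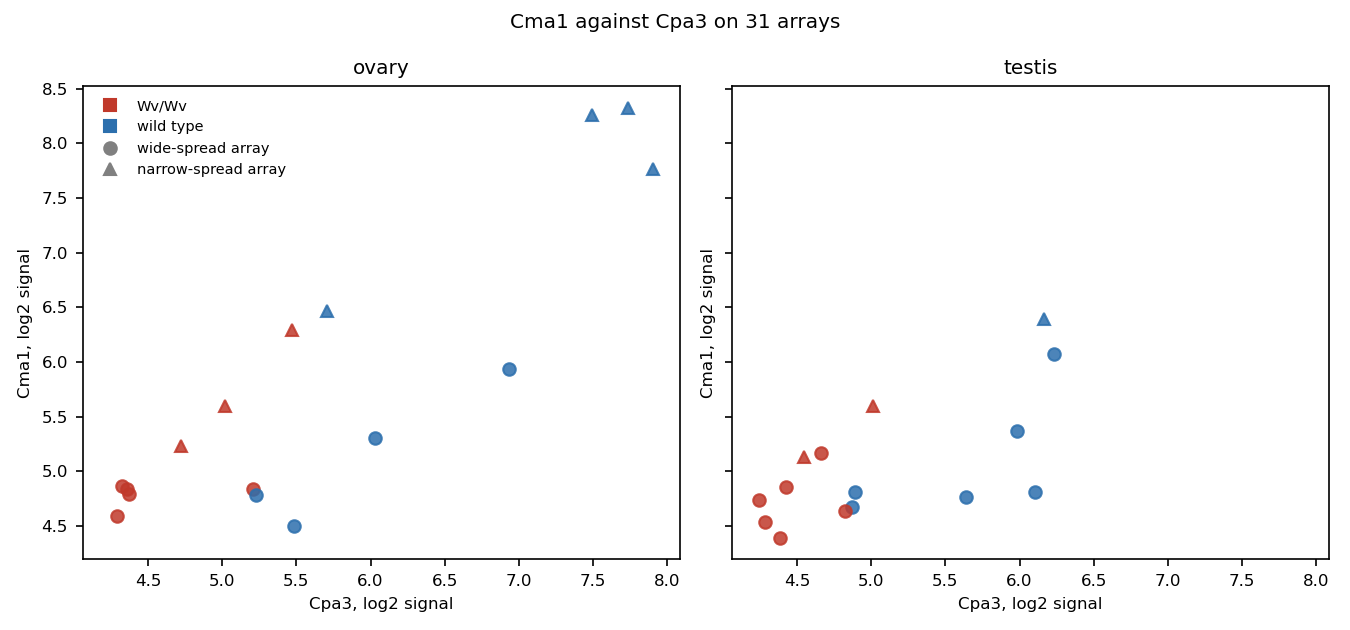
Log2 signal of Cma1 against that of Cpa3 on each array, in ovaries (left) and testes (right), with Wv/Wv in red, wild type in blue, circles for wide-spread and triangles for narrow-spread arrays. Array 1 at 14 dpc and arrays 1 and 3 at 16 dpc of wild-type ovaries carry the highest levels of both genes, and Wv/Wv arrays lie at the low end of Cpa3.

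Tpsb2, the tryptase, passed the test in ovaries at 16 dpc only, and narrowly. It read 4.95, 5.51 and 4.88 in Wv/Wv, against 5.93, 5.71 and 7.03 in wild type, a change of -1.12 ± 0.31 (adjusted p = 0.0459). The arrays did not overlap, and wild-type array 3 was the highest of all 31. In the class-adjusted fit the change was -0.68 ± 0.24 (adjusted p = 0.0574), and 4 of 14 other settings kept the call, with adjusted p values between 2.55e-07 and 0.232. Leaving out wild-type array 1 or 3 or Wv/Wv array 1 or 3 ended the call, and without wild-type array 3 the change was -0.71. The other Tpsb2 probe set averaged 4.27 ± 0.29 in Wv/Wv and 4.61 ± 0.55 in wild type there (SD, n = 3 each), a smaller difference of -0.34. In the other 5 pairs of organ and age the Tpsb2 changes lay between -0.22 and -0.01 and none was called, and the sign turned under some settings, as far as 0.45 in ovaries at 14 dpc with the other probe set. On 23 of 31 arrays Tpsb2 was under the low limit.

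**Figure D3:**
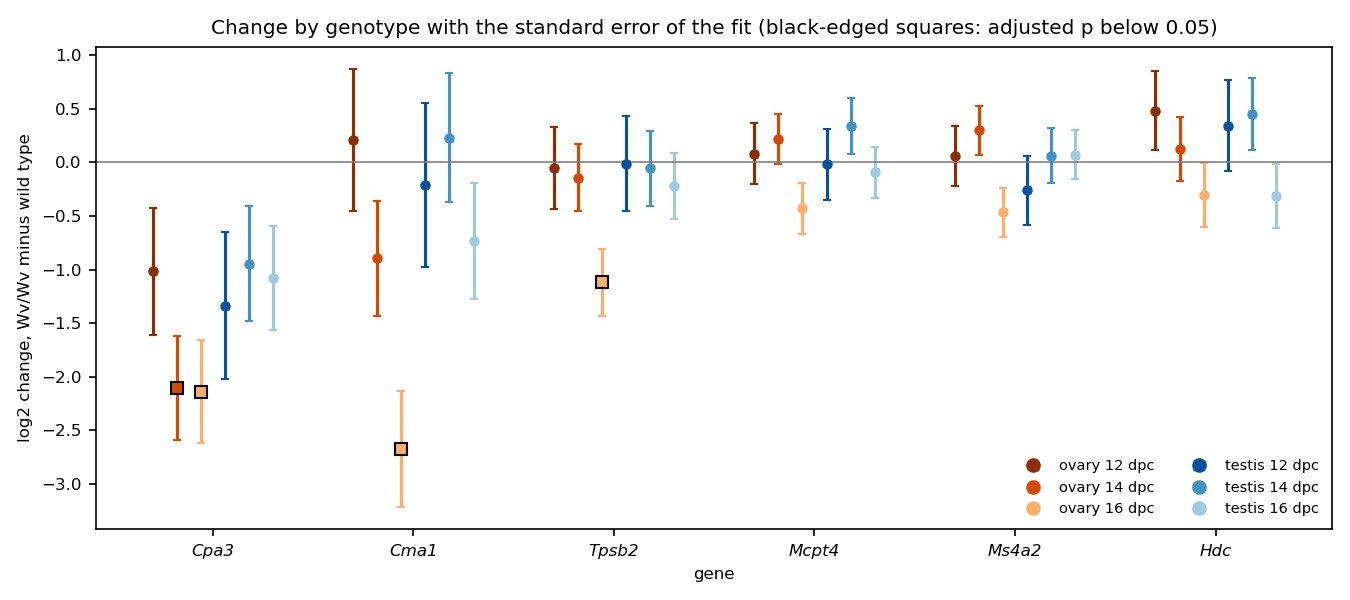
Log2 change of each gene, Wv/Wv minus wild type, with the standard error of the fit, for the 3 ages in ovaries (orange) and testes (blue). Black-edged squares mark the 4 changes with an adjusted p below 0.05: Cpa3 in ovaries at 14 and 16 dpc, and Cma1 and Tpsb2 in ovaries at 16 dpc.

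Mcpt4, a chymase of connective tissue mast cells, ranged from 3.84 to 4.76 on the 16 Wv/Wv arrays, with a median of 4.08, and from 3.84 to 4.87 on the 15 wild-type arrays, with a median of 4.10. In ovaries at 16 dpc it read 4.17, 4.39 and 3.88 in Wv/Wv, against 4.87, 4.41 and 4.44 in wild type. These did not overlap, but all were under the low limit and the change of -0.43 ± 0.23 did not pass the test (adjusted p = 0.260). In the class-adjusted fit it was -0.16 ± 0.17 (adjusted p = 0.588).

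Ms4a2, the receptor chain, ranged from 3.52 to 4.88 on the Wv/Wv arrays, with a median of 3.99, and from 3.85 to 4.44 on the wild-type arrays, with a median of 4.04. Its highest value came from a narrow Wv/Wv ovary array at 14 dpc, and no genotype change was called. In ovaries at 16 dpc it read 3.98, 4.01 and 3.52 in Wv/Wv, against 4.36, 4.10 and 4.44 in wild type, without overlap. The Ms4a2 change there was -0.46 ± 0.23 (adjusted p = 0.215), and -0.18 ± 0.18 (adjusted p = 0.5495) in the class-adjusted fit. Its other probe set had a mean of 4.02 over all arrays and was also low. At this signal a difference in Ms4a2 or Mcpt4 was not detectable, which is no measure of whether their RNA was present.

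Hdc, the histamine-making enzyme, was above the low limit on every array, and no difference by genotype was called. It ranged from 6.19 to 7.43 on the Wv/Wv arrays, with a median of 6.73, and from 6.18 to 7.91 on the wild-type arrays, with a median of 6.60. In ovaries at 16 dpc it read 6.23, 6.79 and 6.24 in Wv/Wv, against 6.91, 6.58 and 6.66 in wild type, which overlapped. In ovaries at 12 dpc it read 7.43 and 7.31 in Wv/Wv, against 7.19 and 6.59 in wild type, and in testes at 12 dpc 6.33, 6.42 and 6.84 in Wv/Wv, against 6.18 in wild type. These did not overlap, nor did the testes at 14 dpc, all with Hdc higher in Wv/Wv by 0.48, 0.34 and 0.46 and adjusted p values of 1, 1 and 0.848. At 16 dpc in ovaries the Hdc change was -0.30 ± 0.30 (adjusted p = 0.531), with 0.10 ± 0.19 over the ages in ovaries (adjusted p = 0.960) and 0.16 ± 0.21 in testes (adjusted p = 1). The 2 Hdc probe sets correlated at 0.061 over the 31 arrays, a value that mixes the array classes. On narrow arrays the set used tended to read higher and the other lower. In Wv/Wv ovaries at 16 dpc, where array 2 is narrow, the other set read 6.55, 5.54 and 6.80. The low correlation therefore does not show that the sets measure different patterns, and the source of the signal was not tested.

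Stretches of promoter are shown for Cpa3 and Cma1, both called lower in Wv/Wv ovaries at 16 dpc, and for Mcpt4, which lies in the same protease cluster as Cma1 and was under the low limit. Each is the 250 bases before the gene's start in RefSeq (build GRCm38.p6), read 5′ to 3′ along the gene, with capitals marking a GATA site, the motif of the blood transcription factors Gata1 and Gata2.
Cpa3 (chr3:20242182-20242431, minus strand): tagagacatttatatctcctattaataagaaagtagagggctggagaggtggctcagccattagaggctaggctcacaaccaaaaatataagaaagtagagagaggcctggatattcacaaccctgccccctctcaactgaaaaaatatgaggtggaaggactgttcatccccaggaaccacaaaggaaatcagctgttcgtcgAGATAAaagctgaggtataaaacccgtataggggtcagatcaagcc
Cma1 (chr14:55944676-55944925, minus strand): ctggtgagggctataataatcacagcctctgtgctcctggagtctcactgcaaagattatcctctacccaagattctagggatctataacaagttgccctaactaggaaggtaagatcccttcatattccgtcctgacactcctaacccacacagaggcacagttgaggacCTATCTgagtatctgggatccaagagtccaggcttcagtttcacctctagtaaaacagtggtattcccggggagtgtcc
Mcpt4 (chr14:56062311-56062560, minus strand): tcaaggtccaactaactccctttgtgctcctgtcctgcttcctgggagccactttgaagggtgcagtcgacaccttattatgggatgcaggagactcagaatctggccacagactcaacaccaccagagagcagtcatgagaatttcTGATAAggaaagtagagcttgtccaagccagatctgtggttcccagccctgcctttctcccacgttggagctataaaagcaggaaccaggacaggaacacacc
The motif was searched on both strands in the spellings AGATAA or AGATAG and also TGATAA or TGATAG. All 5 members with a promoter in the table held at least 1 site, with its first base at -46 in Cpa3, -79 in Cma1, -103 in Mcpt4, -221 in Hdc and -224, -37 and -11 in Ms4a2, and 27.093% of 27025 promoters of this length held one. The E-box of the transcription factor Mitf, searched on both strands as CACGTG or CATGTG, was in none of the 5 and in 17.643% of all promoters. Called and uncalled genes both carried the GATA letters, and a match is a description of sequence and not a binding site. Tpsb2 had no entry.

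Cma1, Cma2, Mcpt1, Mcpt2, Mcpt9, Mcpt4, Mcpt8 and Ctsg follow each other on chromosome 14. Of these, Mcpt1 averaged 3.33 in Wv/Wv ovaries at 16 dpc and 3.37 in wild-type ovaries, and Mcpt2 averaged 4.11 in Wv/Wv and 4.71 in wild type, both under the low limit. Ctsg, cathepsin G, averaged 4.99 in Wv/Wv and 5.56 in wild type there, and none of the 3 was called, while Cma2 and Mcpt9 were not analysed here. Cpa3 lies on chromosome 3 between Gyg and Cpb1, a pancreatic carboxypeptidase, which averaged 4.85 ± 0.25 in Wv/Wv and 4.87 ± 0.35 in wild type in ovaries at 16 dpc (SD, n = 3 each).

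With age, Cma1 and Tpsb2 rose in wild-type ovaries. Cma1 was at 8.33, 6.47 and 8.26 at 16 dpc, against 4.78 and 4.50 at 12 dpc, a change of 3.04 ± 0.60 (adjusted p = 0.0026). Tpsb2 was at 5.93, 5.71 and 7.03 at 16 dpc, against 5.09 and 5.06 at 12 dpc, a change of 1.15 ± 0.35 (adjusted p = 0.0449). Cpa3 gained 1.62 ± 0.54, which missed the threshold (adjusted p = 0.0652), and 2 of 6 members were called, beside 7.68% of all genes in either direction. All 16 dpc arrays here were narrow and both 12 dpc arrays wide. In the class-adjusted fit the Cma1 change was 2.04 ± 0.55 (adjusted p = 0.0168) and that of Tpsb2 0.51 ± 0.29 (adjusted p = 0.301), with 11.7% of all genes called.

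In Wv/Wv ovaries the same interval gave 0.16 ± 0.60 for Cma1 (adjusted p = 0.990), 0.09 ± 0.35 for Tpsb2 and 0.50 ± 0.54 for Cpa3, with 0 of 6 members called beside 3.69% of all genes. The difference between genotypes in this change was -2.89 ± 0.85 for Cma1, with an unadjusted p of 0.0026 and an adjusted p of 0.275, so it did not pass the test (0 of 6 members, beside 0.555% of all genes). It was called in 2 of 19 other settings, with array weights and without wild-type ovary 16 dpc array 2, where the change was -3.50. Both genotypes' age changes rest on the same kind of small groups, of 2 and 3 arrays.

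For Hdc no age change was called in either genotype's ovaries without the class term. In Wv/Wv ovaries it read 6.23, 6.79 and 6.24 at 16 dpc, against 7.43 and 7.31 at 12 dpc, a change of -0.95 ± 0.33 (adjusted p = 0.151). Wild-type ovaries read 6.91, 6.58 and 6.66 at 16 dpc, against 7.19 and 6.59 at 12 dpc, which overlapped, a change of -0.17 ± 0.33 (adjusted p = 0.720). In the class-adjusted fit Hdc fell by 1.14 ± 0.18 in Wv/Wv ovaries (adjusted p = 6.82e-05, with 17% of all genes called) and by 0.73 ± 0.20 in wild-type ovaries (adjusted p = 0.0194). In Wv/Wv ovaries its other probe set averaged 6.30 ± 0.67 at 16 dpc and 8.19 ± 0.11 at 12 dpc (SD, n = 3 and n = 2). For wild-type ovaries the averages of that Hdc probe set were 6.202 ± 0.45 at 16 dpc and 7.21 ± 0.88 at 12 dpc (SD, n = 3 and n = 2). In testes no member was called with age: Cma1 differed by 0.42 ± 0.54 in Wv/Wv and by 0.95 ± 0.76 in wild type, beside 5.39% and 1.65% of all genes called. The age by genotype difference in testes gave 0 of 6 members, beside 0.066% of all genes.

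Between the organs no member was called. In Wv/Wv the testis minus ovary differences of the 6 genes lay between -0.18 and 0.01 (0 of 6 called, beside 8.95% of all genes in either direction). In wild type Cma1 averaged 5.16 in testes and 6.22 in ovaries, a difference of -1.06 ± 0.37 (adjusted p = 0.0855), and Cpa3 5.68 in testes and 6.43 in ovaries, a difference of -0.75 ± 0.33 (adjusted p = 0.220). Again 0 of 6 were called, beside 8.56%. In order of group means Cpa3 ran from wild-type ovaries at 16 and 14 dpc (6.98 ± 1.11 and 6.96 ± 0.94), which did not differ beyond their spread, through wild-type testes at 16, 14 and 12 dpc (5.76, 5.66 and 5.64) and wild-type ovaries at 12 dpc (5.36 ± 0.19), which also overlapped, to the 6 Wv/Wv groups between 4.85 and 4.30.

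Beyond the 6 genes, 20 of 24 other mast cell genes were measured, and in ovaries 1 of them (5%) was called lower at 14 dpc and over the ages, near the 4.08% and 3.25% of all genes. This was Srgn, the serglycin core protein on which granule proteases are stored and which other blood cells and endothelium also make. At 14 dpc in ovaries it read 7.02, 6.46 and 6.21 in Wv/Wv, against 8.49, 8.01 and 8.19 in wild type, a change of -1.67 ± 0.32 (adjusted p = 0.0022). Over the ages its ovary change was -0.997 ± 0.20 (adjusted p = 0.0033). In ovaries at 16 dpc 18 of the 20 had a lower mean in Wv/Wv, as had 8688 of all 18194 genes, and 0 were called, with a median of -0.22 against 0.03 over all genes. The wild-type arrays there were all narrow, and the 2 furthest were Tph1 (-0.66 ± 0.22, adjusted p = 0.0939) and Ndst2 (0.84 ± 0.30, adjusted p = 0.104). The alpha chain of the IgE receptor, Fcer1a, averaged 3.42 in Wv/Wv and 3.72 in wild type there, under the low limit. In testes 0 of 20 were called over the ages, with Tph1 at -0.42 ± 0.15 (adjusted p = 0.684) and Srgn at -0.40 ± 0.22 (adjusted p = 1), and 0 at 16 dpc.

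The array probes read Kit itself but not the Wv base change. Kit in ovaries at 14 dpc read 8.60, 7.05 and 6.83 in Wv/Wv, against 8.37, 9.93 and 9.79 in wild type. The genotypes overlapped over all arrays but not within either array class, where 1 genotype had 1 array. The change of Kit was -1.87 ± 0.54 (adjusted p = 0.0491). In the class-adjusted fit it was -1.37 ± 0.22 (adjusted p = 8.31e-05), where 14.7% of all genes were called lower. At 16 dpc in ovaries the change was 1.19 ± 0.54 (adjusted p = 0.187), and in the class-adjusted fit 0.20 ± 0.23 (adjusted p = 0.615). The other Kit probe set read 5.45, 5.77 and 5.32 in Wv/Wv there, against 5.92, 6.11 and 6.05 in wild type, the opposite direction. In ovaries at 14 dpc that probe set read 5.09, 5.88 and 5.85 in Wv/Wv, against 5.96, 5.93 and 6.17 in wild type, the same direction as the set used. The direction of Kit in ovaries thus depended on the probe set at 16 dpc, where all wild-type arrays were narrow, and not at 14 dpc. The 2 Kit probe sets correlated at -0.516 over the 31 arrays. On narrow arrays the set used tended to read lower and the other higher, and the part of array class in this value was not tested. Germ cells also carry Kit. Among 17 measured genes of Kit and its signalling, Kit and the phosphatase Ptpn6 (-0.69 ± 0.18, adjusted p = 0.0257) were called lower in ovaries at 14 dpc, and Ptpn6 alone over the ages. In the class-adjusted fit Kit was also called lower over the ages in ovaries (-0.65 ± 0.13, adjusted p = 9.66e-04), beside 14.1% of all genes. Over the ages in ovaries the ligand Kitl (0.36 ± 0.19, adjusted p = 0.466) and the transcription factors Mitf (0.33 ± 0.20, adjusted p = 0.581) and Gata2 (-0.48 ± 0.30, adjusted p = 0.588) were not called, nor was any of the list in testes. Of 6 histamine receptors and breakdown enzymes, Hnmt, which inactivates histamine by methylation, was higher in Wv/Wv ovaries at 16 dpc (2.01 ± 0.41, adjusted p = 0.0049), where it averaged 6.28, against 4.26 in wild type, at least 1.85-fold. All wild-type arrays there were narrow, and no class-adjusted value is given for Hnmt.

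Some markers of other blood cells were also called lower in Wv/Wv ovaries. Of 10 erythroid genes 5 were called lower at 14 dpc, 6 at 16 dpc and 5 over the ages, the last with a median of -1.18, against 0.02 over all genes. The erythroid list mean ranged from 6.12 to 6.26 in Wv/Wv ovaries at 16 dpc, against 7.49 to 9.15 in wild type. Klf1, an erythroid transcription factor, read 6.04, 6.64 and 6.32 there in Wv/Wv, against 9.07, 8.80 and 10.24 in wild type, a change of -3.04 ± 0.47 (adjusted p = 2.08e-04). Over the ages the called changes reached -2.01 ± 0.38 for Rhag (adjusted p = 0.0017) and -1.33 ± 0.37 for Ermap (adjusted p = 0.0485), both red cell membrane proteins. In testes all 10 had a lower mean in Wv/Wv over the ages and 0 were called. At 12 dpc, where the Cpa3 mean was lower in Wv/Wv ovaries without a call, all 10 erythroid genes had a higher mean in Wv/Wv ovaries and 0 were called. Of 8 neutrophil genes Mpo, myeloperoxidase, was called lower over the ages in ovaries (-1.50 ± 0.40, adjusted p = 0.0334), and in testes 0 were, with S100a8 at -1.57 ± 0.56 (adjusted p = 0.616) and Ngp at -1.43 ± 0.47 (adjusted p = 0.423). The neutrophil list mean ranged from 5.30 to 5.91 in Wv/Wv ovaries at 16 dpc, against 5.90 to 8.06 in wild type. All wild-type ovary arrays at 16 dpc were narrow, and no class-adjusted values are given for these erythroid and neutrophil genes. Their part in the mast cell results was not tested.

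Of the macrophage and leukocyte genes 0 of 13 were called lower in ovaries at 16 dpc and Csf1r, the macrophage growth factor receptor, was higher (0.92 ± 0.23, adjusted p = 0.0243). Their list mean ranged from 6.85 to 7.36 in Wv/Wv, against 6.59 to 7.10 in wild type. Of 8 basophil and eosinophil, 8 melanocyte and 7 megakaryocyte genes 0 were called over the ages in either organ, with medians between -0.09 and 0.06. Of these the furthest ovary changes were Siglecf (-0.55 ± 0.30, adjusted p = 0.489) and Ednrb (0.52 ± 0.22, adjusted p = 0.275). Of 8 mesonephros and kidney tubule genes Calb1 (1.02 ± 0.20, adjusted p = 0.0024) and Pax8 (0.77 ± 0.15, adjusted p = 0.0017) were called higher over the ages in ovaries, and 0 in testes. Of 12 germ cell genes 11 were called lower over the ages in ovaries and 10 in testes, with Dazl at -6.30 ± 0.38 (adjusted p = 2.72e-11) and -5.62 ± 0.42 (adjusted p = 9.19e-09).

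**Figure D4:**
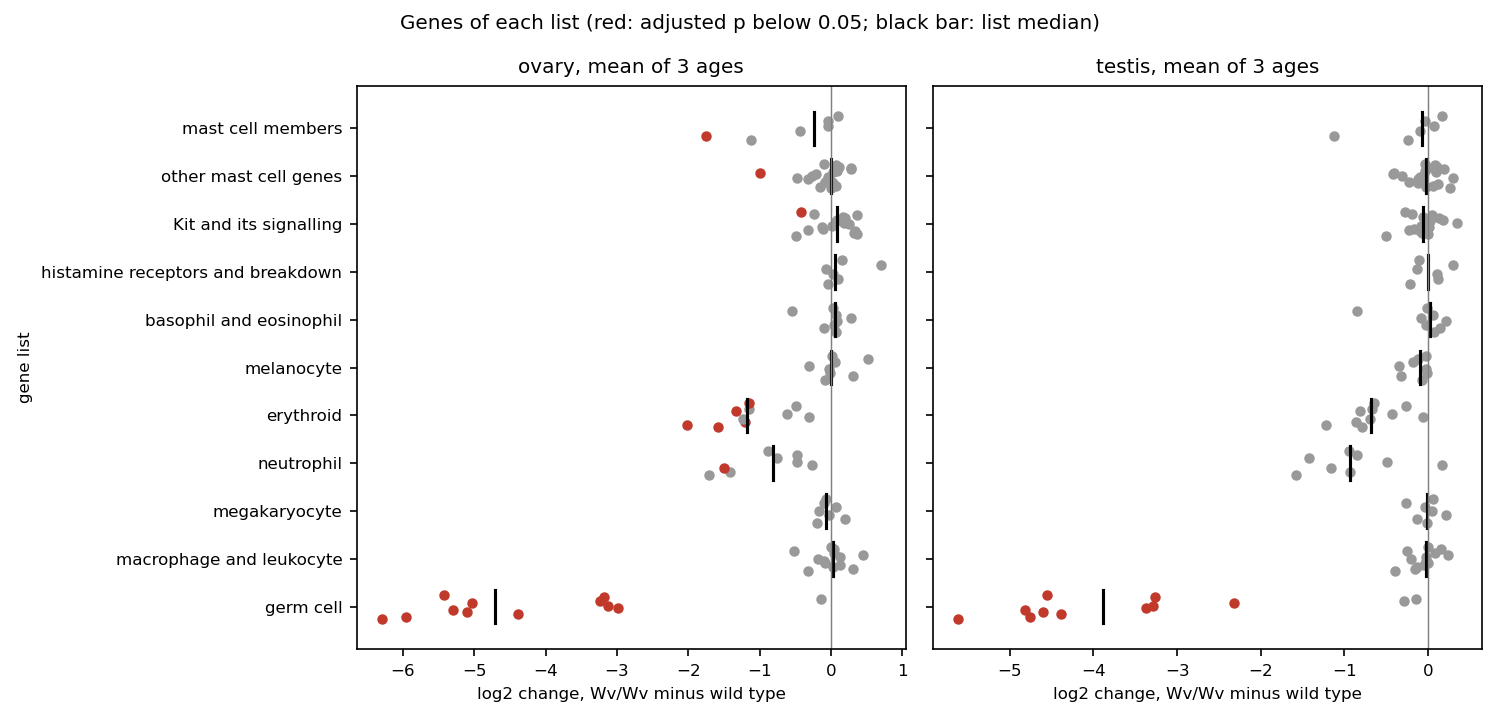
Log2 change, Wv/Wv minus wild type, over the 3 ages in ovaries (left) and testes (right), 1 point per gene, by gene list, in red where the adjusted p was below 0.05 and with a black bar at the list median. Germ cell genes lie furthest down in both organs, and the erythroid, neutrophil and mast cell points reach below -1 in ovaries.

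The genes whose pattern was most like the mean of the 6, each scaled to its own mean and SD, were given by Pearson correlation. Over the 31 arrays they were Slc45a1 (0.903), Acox2, Gm14198, Rbfox3, Wfdc12, Pou2f2, Smyd1 and Poteg (0.892), and over the 12 group means P2rx3 (0.975), Fam186a, Cdk5r2, Oaz3, Dnah8, Slc45a1, Wbp2nl and Poteg (0.950). The points share array class, genotype and age. Over the 21 wide arrays alone, a choice made after the values were seen, the first was Mcpt2 (0.878), another mast cell protease. Over the 31 arrays centred within class, Rac2 (0.785), Aspa (0.755) and Tktl2 (0.734) came first, and Mcpt2 was not among the first 8. Cpa3 taken alone was most like 8030474K03Rik (0.858) and Spo11 (0.840), which makes meiotic DNA breaks, followed by Cma1 (0.840). Cma1 taken alone over the 31 arrays was most like Msh5 (0.920), Ccnb3 (0.895) and 1700018B24Rik (0.894), and Cpa3 was not among its first 6. Over the wide arrays Cpa3 was most like AI662270 (0.915) and 8030474K03Rik (0.852), and Cma1 was not among the first 6.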

How the data were processed

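The authors deposited log2 signals of 45101 probe sets for 31 arrays. RMA, a method that corrects background and normalises between arrays, is named in the submitters' processing notes, and its version is not given in the sources used here. The number of arrays limits the precision. Names came from GEO's annotation of the platform (35890 listed, 34958 with 1 symbol, 932 with several, 9211 not listed), and 34754 were found by gene ID in a table of mouse genes. The probe set with the highest mean stood for each of 18194 genes. The 27 within-group pairs of arrays differed by an SD of at least 0.179.

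Changes were fitted with limma 3.58.1 in R 4.3.3 (lmFit, eBayes), each group having its own mean and all 31 arrays sharing the variance (19 residual and 3.999 prior degrees of freedom), in 17 comparisons with Benjamini-Hochberg adjustment, and called below 0.05. Wild-type testes at 12 dpc have 1 array, taken to vary like the others. Array classes were parted at an SD of 2.25, and the 3′ minus 5′ Gapdh difference was 2.01 ± 0.19 on wide and 0.70 ± 0.19 on narrow arrays. The test was checked on simulated data. Python 3.11.15 with pandas 2.3.3 and numpy 2.4.6 wrote the tables, and matplotlib 3.10.9 drew the plots.

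The members and gene lists were chosen with earlier results of these data known. The text names the 6 members throughout, Kit, Kitl, Mitf and Gata2, for each list its furthest called genes (or uncalled, where it has none), and the 8 genes most like the members. The deviations of same-numbered arrays correlated at 0.60 to 0.72 in testes at 16 dpc, where both arrays 1 are narrow, at 0.46 in ovaries at 12 dpc, with 2 pairs, and at -0.82 to -0.53 in ovaries at 14 dpc. Alternatives were other centring and scaling, a low-signal filter, array weights, other probe sets, array class, the replicate number as a block, only the compared arrays, and each array left out. A lower bound on a fold sets the higher group's mean against the low limit, and takes in neither the spread of the arrays nor array class.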

Additional observations from a re-analysis of the deposited data

Results flagged for a closer look

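Cma1 at 12 dpc had differences by genotype of opposite sign in the 2 organs, with every Wv/Wv array on one side of the wild-type arrays in each. Neither difference passed the limma test (adjusted p = 1 in both). It was -0.21 in testes (4.74, 4.53 and 4.40 in Wv/Wv, against 4.77 in wild type, 1 array) and 0.21 in ovaries (4.84 and 4.87 in Wv/Wv, against 4.78 and 4.50 in wild type), so the testis minus ovary value was -0.42. The difference was not tested at this age, and all 8 values were under the low limit of 5.39.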

How the results depend on the processing

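Of the single-gene values recomputed under other settings, 1216 counted as the same, 20 lost a call and 19 gained one. Another 24, without a call, changed sign by at least the standard error of the main fit. Those counted as the same kept their call status, but uncalled values among them could change sign by less than that error. The Cpa3 call over the ages in ovaries and the Cma1 call in ovaries at 16 dpc held throughout. Counts of called members moved as follows. In ovaries at 14 dpc (1 called) the class-adjusted fit gave 2, and housekeeping centring, array weights and only the compared arrays gave 0. In ovaries at 16 dpc (3) array weights gave 6 and only the compared arrays 1, and the class-adjusted fit, the class term, housekeeping centring and every probe set each gave 2, without Tpsb2. Over the ages in ovaries (1) the class-adjusted fit, array class as a term with all arrays, quantile normalization and array weights each gave 2, and in testes (0) array class as a term gave 1, Cpa3. With low-signal genes left out the counts were 0, 1 and 0 in ovaries at 14 dpc, 16 dpc and over the ages, as that filter drops Cpa3 and Tpsb2. For 16 against 12 dpc in wild-type ovaries (2) housekeeping centring, low-signal genes left out and every probe set each gave 1, array weights 5 and only the compared arrays 4. In Wv/Wv ovaries (0) the class-adjusted fit, the class term, wide-spread arrays alone and array weights each gave 1, and in Wv/Wv testes array weights gave 1. Array weights also gave 3 between organs in wild type (0) and 6 for the age by genotype difference in ovaries (0), and their estimate stopped before convergence. The cause of these moves was not tested.

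With each array left out in turn the counts ranged from 0 to 1 in ovaries at 14 dpc, 1 to 3 at 16 dpc, 1 to 2 over the ages, 0 to 2 between organs in wild type, 1 to 3 for age in wild-type ovaries and 0 to 1 for the age by genotype difference in ovaries. With the labels' replicate number as a replicate block the count was 2 in ovaries at 16 dpc, where Tpsb2 was lost, and 1 for age in wild-type ovaries, and no other count changed. Housekeeping centring moved the median change of all genes to 0.38 in ovaries at 14 dpc and -0.24 in testes at 16 dpc, and in ovaries at 16 dpc its calls were 2540 higher and 622 lower, against 253 and 427 without it. Wide-spread arrays alone gave no value where wild-type ovaries at 16 dpc were needed. Most signals of Cpa3, Cma1, Tpsb2, Mcpt4 and Ms4a2 lay near or under the low limit, so sizes of change may be understated.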
